A study of Mus musculus with 23 samples.

Results

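The genes described here are the Wnt ligands, the Frizzled, LRP and LGR receptors, the secreted modulators of Wnt signalling, and the nuclear factors and feedback gene Lef1, Tcf7 and Axin2, as expressed in mouse retinal organoids. They were chosen by gene symbol among protein-coding genes on the reference chromosomes. The rule itself used no measured values, but earlier results of these data were known when it was set. The choice gave 49 of 52143 genes in the table of gene counts: 19 ligands, 15 receptors, 12 secreted modulators and 3 genes of the nuclear and feedback group.

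Retinal organoids were grown from 1 clone of induced pluripotent stem cells (iPSC), made from fibroblasts of wild-type mice at embryonic day 14.5 that carried the Nrl-GFP reporter. Neural retina was cut out of about 12 organoids for a library, and poly(A) RNA was sequenced with a directional kit. All cultures received bovine serum albumin (BSA) from day 10, either alone or conjugated with docosahexaenoic acid (DHA, an omega-3 fatty acid abundant in photoreceptor membranes) or linoleic acid (LA, an omega-6 fatty acid), and some received fibroblast growth factor 1 (FGF1) at 200 ng/ml from day 26. The 23 libraries made 9 groups: BSA, LA and DHA at day 26 with 2 libraries each; BSA, LA and DHA at day 32 without FGF1 with 3 each; and, at day 32 with FGF1, BSA with 3, LA with 3 and DHA with 2. From day 26 the medium of every culture also gained B27, serum and amino acids, so day and medium composition cannot be told apart. The labels call the libraries of a group biological replicates. All came from the same clone, so p-values measure only the spread between these cultures.

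Wnt ligands are lipid-modified secreted proteins that bind Frizzled receptors together with the co-receptors Lrp5 or Lrp6. In the canonical branch this stabilises beta-catenin, which acts with Tcf and Lef factors at target genes, among them Axin2, while other ligands such as Wnt5a mostly act without beta-catenin. R-spondins bound to Lgr4, Lgr5 or Lgr6 raise the amount of receptor at the cell surface, and Sfrp, Frzb, Wif1 and Dkk proteins restrain signalling outside the cell. In the developing eye the pathway is known for its part in the ciliary margin, the pigment epithelium and the retinal vessels.

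The libraries fell into 2 depth sets that the labels do not name, and every member was therefore compared within a set wherever the design allowed. The 12 deeper libraries held 16029580 to 20510550 counts and were the day 26 libraries together with replicates 1 and 2 of the FGF1 groups. The 11 shallower ones held 10405663 to 11888224 counts and were the day 32 libraries without FGF1 plus the third replicates of BSA and LA with FGF1. The authors left 5 of these 11 out of their normalized table: replicate 1 of each medium without FGF1 and replicate 3 of BSA and of LA with FGF1. Mitochondrial transcripts took 3.02% to 4.24% of counts in the deeper and 5.55% to 12.5% in the shallower libraries. Summed photoreceptor markers (Crx, Nrl, Rcvrn and 5 others) stood between 2848 and 8461 CPM (counts scaled to library size) in all 23 libraries, and markers of other cell types are given beside the results they move with. Levels below are CPM scaled by the TMM method of edgeR. In these bulk samples, fewer cells of a type and less RNA per cell cannot be told apart.

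Receptors were the most abundant members. Per kilobase of the main transcript and averaged over the 23 libraries, Lgr4, an R-spondin receptor, led with 18.7 CPM per kilobase (SD 5.28), followed by the co-receptor Lrp6 at 13.8 (SD 5.97), Fzd3, a Frizzled known for axon guidance, at 12.6 (SD 4.58), Lgr5 at 10.8 (SD 5.01) and Fzd5, a Frizzled known from eye development, at 9.40 (SD 1.50). Each of these 5 neighbours in the order lay within 1 SD of the next. Lrp5 followed at 4.42 (SD 3.81), with a range from 0.256 to 10.7 that is taken up below. Lgr4 had the highest mean in each of the 4 blocks of day, FGF1 and depth set that make up the 23 libraries, while the order below it varied: at day 26 Lgr5 stood at 4.14 and Lrp5 at 8.96. Among the modulators Sfrp1, a secreted Frizzled-related protein, had the highest mean at 4.35 (SD 1.83) and led in each block. The related Frzb came next over all libraries at 1.76 (SD 0.894), but at day 26 it stood at 0.821, below Wif1 at 1.25 and Rspo2 at 1.01. The order of the ligands also depended on the block. Over all libraries Wnt5a had the highest mean at 2.42 (SD 1.05), with Wnt5b at 1.50 (SD 0.826), Wnt2b at 1.46 (SD 0.379) and Wnt9a at 1.26 (SD 0.783). Wnt5a led only in the shallower blocks, at 3.09 without and 4.07 with FGF1. At day 26 Wnt5b stood at 2.48 and Wnt5a at 1.52, and in the deeper libraries with FGF1 Wnt9a stood at 2.25, Wnt5b at 1.85, Wnt2b at 1.78 and Wnt5a at 1.77. Axin2, the feedback gene, stood at 2.68 (SD 1.39) and Tcf7, a nuclear partner of beta-catenin, at 1.29 (SD 0.680).

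**Figure D1:**
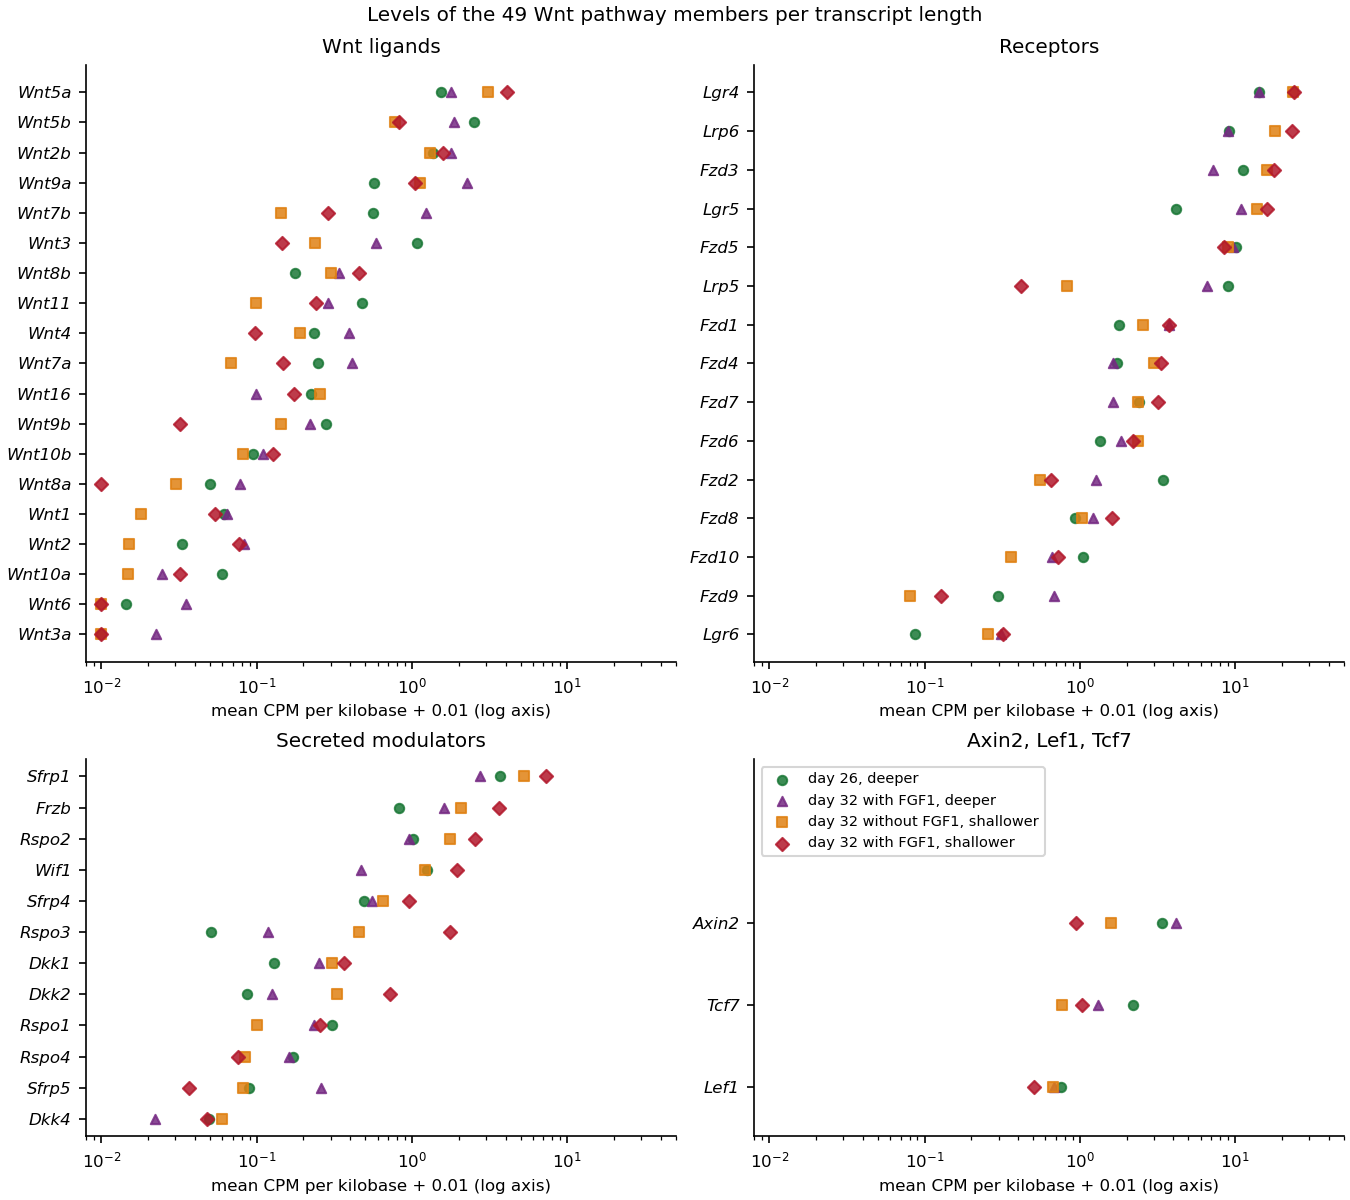
Mean level of each of the 49 members in CPM per kilobase of its main transcript, plus 0.01 so that 0 can be drawn, on a log axis, in 4 blocks of libraries (6 at day 26, 6 at day 32 with FGF1 in the deeper set, 9 at day 32 without FGF1 and 2 with FGF1 in the shallower set). Lgr4, Lrp6, Fzd3, Lgr5 and Fzd5 lie furthest to the right, and the 2 purple and red marks of day 32 with FGF1 lie far apart for Lrp5.

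In the deeper libraries 10 members did not pass the filter on low counts. Their highest values in any of the 23 libraries were 3.71 CPM for the inhibitor Dkk2, 8.83 for the R-spondin Rspo3, 0.434 for Wnt10b, 0.314 for Wnt8a, 0.310 each for Wnt1 and Wnt2, 0.213 for the inhibitor Dkk4, 0.164 for Wnt10a, 0.116 for Wnt6 and 0.105 for Wnt3a. Wnt3a had a count in only 3 libraries and Wnt6 in 4. The highest Rspo3 and Dkk2 values both came from the third replicate of BSA with FGF1, a shallower library.

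Binding of Tcf and Lef factors is read from short sequence motifs, so the upstream bases of the members were searched for the letters CTTTGA and CTTTGT on both strands (TCAAAG and ACAAAG on the other). RefSeq gave 40 promoters for 33 of the 49 members in GRCm38.p6. In the 250 bases before the start, 9 of these 40 (22.5%) held a match, against 9075 of all 32851 promoters (27.6%), so the share in the members was close to that in all promoters. The matches were in Dkk1, Dkk2, Frzb, Fzd1, Fzd7, Lef1, Wnt11, Wnt5b and Wnt8b. A match describes letters only and says nothing about binding. The upstream bases of 4 members named in the results are shown 5′ to 3′ on the gene's strand with matches in capitals. Fzd1 rose from day 26 to day 32 with FGF1 (chr5:4758217-4758466, minus strand, 2 matches). Fzd7 fell but lost the call in 8 of 16 alternative fits (chr1:59481897-59482146, plus strand, 1 match). Lgr6 rose (chr1:135105277-135105526, minus strand, no match). Wnt8b stood higher in LA than in DHA or BSA in the deeper libraries with FGF1, without a call in edgeR (chr19:44493222-44493471, plus strand, 1 match). For Fzd1 and Fzd7 the window ends upstream of the annotated gene start (4758035 and 59482424). No annotated transcript start was found in the bases just after it.
Fzd1: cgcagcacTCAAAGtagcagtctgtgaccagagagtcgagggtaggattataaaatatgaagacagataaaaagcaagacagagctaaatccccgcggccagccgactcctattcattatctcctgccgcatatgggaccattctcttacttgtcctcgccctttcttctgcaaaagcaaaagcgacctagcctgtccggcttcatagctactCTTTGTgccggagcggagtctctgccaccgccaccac
Fzd7: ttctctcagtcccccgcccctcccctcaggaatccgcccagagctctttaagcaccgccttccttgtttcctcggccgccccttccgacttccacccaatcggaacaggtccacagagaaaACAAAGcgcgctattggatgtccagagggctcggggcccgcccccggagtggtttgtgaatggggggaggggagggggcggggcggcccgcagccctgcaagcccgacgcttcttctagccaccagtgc
Lgr6: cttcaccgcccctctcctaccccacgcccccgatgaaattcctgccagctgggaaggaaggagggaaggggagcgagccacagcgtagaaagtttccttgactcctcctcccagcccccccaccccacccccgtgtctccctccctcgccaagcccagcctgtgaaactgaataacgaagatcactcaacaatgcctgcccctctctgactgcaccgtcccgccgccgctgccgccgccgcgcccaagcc
Wnt8b: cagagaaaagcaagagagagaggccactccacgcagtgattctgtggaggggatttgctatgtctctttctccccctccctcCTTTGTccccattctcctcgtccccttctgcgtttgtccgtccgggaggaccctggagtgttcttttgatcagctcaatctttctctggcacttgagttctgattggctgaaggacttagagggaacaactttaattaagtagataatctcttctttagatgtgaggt

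From day 26 to day 32 with FGF1, within the 12 deeper libraries, the receptor repertoire was reordered: Lgr5, Lgr6, Fzd1, Fzd9 and Fzd6 rose while Fzd2, Fzd3, Fzd7 and Lrp5 fell. Among ligands Wnt9a rose and Wnt3 fell, and among modulators Sfrp5, Dkk1 and Frzb rose and Wif1 fell. Of the 49 members, 39 passed the filter and 16 of these changed (41.0%) at an adjusted p under 0.05 in edgeR's quasi-likelihood test with Benjamini-Hochberg adjustment, against 5773 of 20111 genes tested (28.7%). Of the members 9 were higher and 7 lower, and of all genes 14.6% were higher and 14.1% lower. The median log2 difference was 0.00 over the 39 members and over all genes. By role, 9 of 15 receptors, 2 of 12 tested ligands, 4 of 9 tested modulators and 1 of 3 nuclear and feedback genes changed. FGF1, age and the change of medium all differ between these groups and cannot be told apart here.

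**Figure D2:**
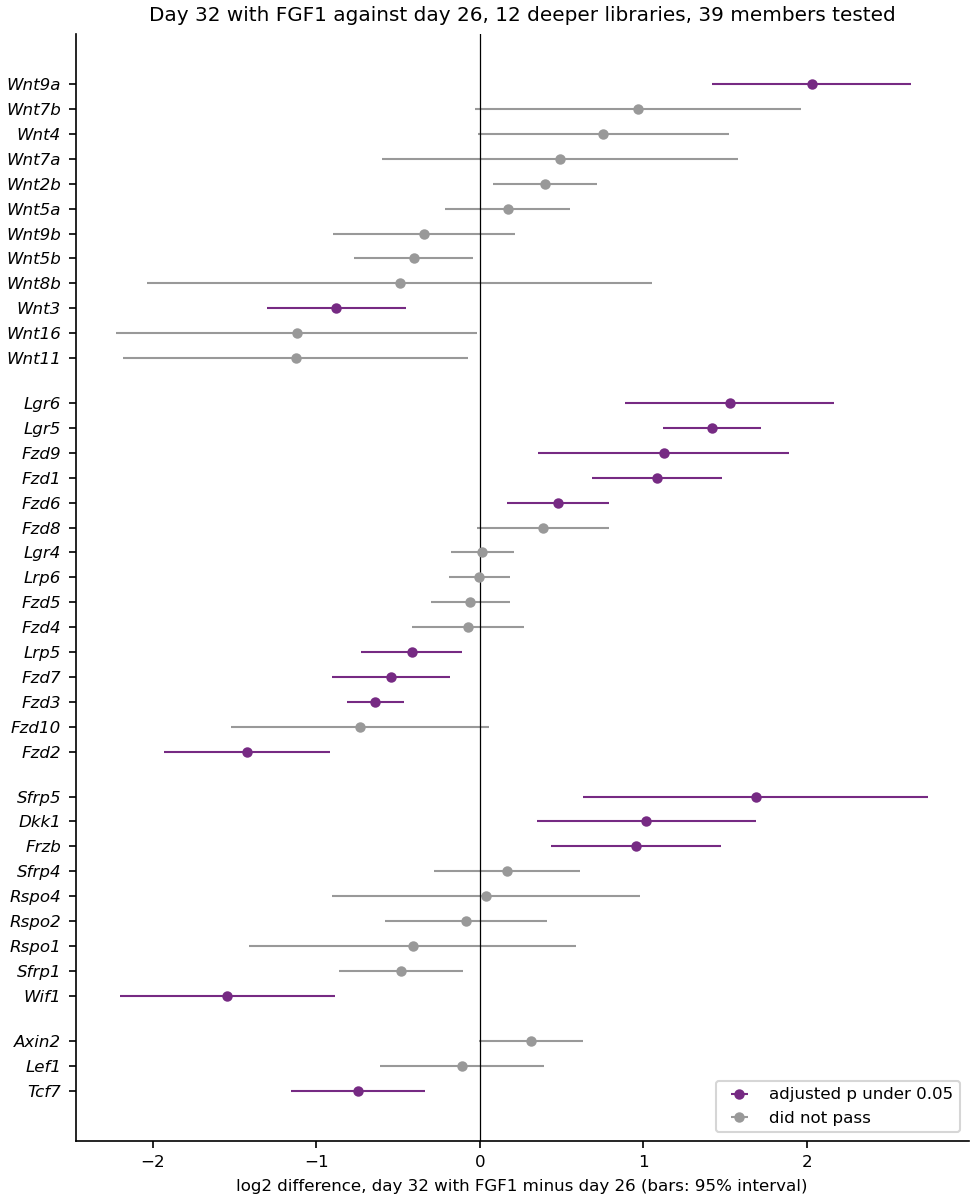
Log2 difference between day 32 with FGF1 and day 26 for each of the 39 tested members (6 against 6 deeper libraries), with 95% intervals, in blocks from the top of ligands, receptors, modulators and the nuclear and feedback group. Purple marks the 16 members past an adjusted p of 0.05; Wnt9a at 2.03 is furthest right, and Wif1 at -1.54 and Fzd2 at -1.42 are furthest left among them.

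Lgr5, the R-spondin receptor best known as a stem cell marker (chr10:115450311-115587780), stood at 15.8 to 23.2 CPM (median 19.1) in the 6 libraries of day 26 and at 41.6 to 63.3 CPM (median 50.6) in the 6 of day 32 with FGF1. No library of one day reached the other. The log2 difference was 1.42 (SE 0.137, adjusted p = 2.6e-05), and the ratio of means was 2.87 in BSA, 2.24 in LA and 2.85 in DHA. Its relative Lgr6 was low, at 0.157 to 0.702 CPM (median 0.644) at day 26 and 0.484 to 5.88 CPM (median 0.858) at day 32 with FGF1. The highest values came from LA, at 5.88 and 3.36 CPM. BSA replicate 1 at 0.786 CPM and DHA replicate 2 at 0.929 CPM lay just above all of day 26, and the other 2 libraries lay within its range. The fitted log2 difference for Lgr6, averaged over the media, was 1.53 (SE 0.292, adjusted p = 0.00244), while the ratio of means was 6.83 in LA, 2.94 in BSA and 1.18 in DHA. Lgr4 stayed the most abundant of the LGR genes per length and had a log2 difference of 0.02 (95% interval -0.18 to 0.21).

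The Frizzled receptors split. Fzd2 stood at 10.0 to 15.1 CPM (median 12.6) at day 26 and at 2.56 to 6.80 CPM (median 4.46) at day 32 with FGF1, and the days did not overlap. It fell by 1.42 on the log2 scale (SE 0.231, adjusted p = 0.000868). Fzd3 went from 126 to 175 CPM (median 138) down to 73.9 to 114 CPM (median 83.8), again without overlap, a fall of 0.64 on the log2 scale (SE 0.0805, adjusted p = 0.000158). Fzd1 went the other way, from 6.12 to 11.2 CPM (median 6.65) at day 26 to 10.6 to 22.2 CPM (median 16.2), and only the highest library of day 26, LA replicate 1, reached into the later range. Its log2 difference was 1.08 (SE 0.181, adjusted p = 0.00103). Smaller or less even changes were those of Fzd9 (1.12), Fzd6 (0.48) and Fzd7 (-0.54). Fzd5 and Fzd4 did not pass, at -0.06 (95% interval -0.30 to 0.18) and -0.07 (95% interval -0.41 to 0.27), and neither did Fzd8 (0.38) and Fzd10 (-0.73).

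The co-receptors differed from each other. Lrp5 stood at 39.2 to 55.1 CPM (median 45.3) at day 26 and 25.2 to 41.3 CPM (median 34.6) at day 32 with FGF1. These ranges overlapped, and the fall of 0.42 on the log2 scale (SE 0.142) passed narrowly at an adjusted p of 0.0457. Lrp6 stood at 78.9 to 92.7 CPM and 70.4 to 95.3 CPM, with a log2 difference of -0.00 (95% interval -0.19 to 0.18).

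Among the ligands, Wnt9a, a family member best known from joint and cartilage development (chr11:59306928-59333552), stood at 1.15 to 2.91 CPM (median 1.58) at day 26 and at 5.66 to 11.6 CPM (median 6.30) at day 32 with FGF1. All 6 later libraries lay above all 6 earlier ones. The log2 difference was 2.03 (SE 0.277, adjusted p = 0.000278), and the ratio of means was 4.51 in BSA, 3.10 in LA and 4.70 in DHA. Wnt3, a canonical ligand, fell by 0.88 on the log2 scale (SE 0.194, adjusted p = 0.00566), from 2.20 to 4.05 CPM (median 3.42) to 1.45 to 2.43 CPM (median 1.66). The ranges of Wnt3 overlapped in 1 library of each day. The other 10 tested ligands did not pass. The nearest were Wnt2b at 0.40 (adjusted p = 0.0591) and Wnt5b at -0.40 (adjusted p = 0.0913), while the abundant Wnt5a stood at 0.17 (95% interval -0.21 to 0.55).

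The secreted inhibitors moved in both directions. Frzb (also known as Sfrp3) stood at 1.51 to 4.51 CPM (median 2.47) at day 26 and 3.60 to 7.03 CPM (median 4.59) at day 32 with FGF1, a log2 difference of 0.95 (SE 0.237, adjusted p = 0.0106). Only LA replicate 2 of day 26 reached into the later range. Wif1, which binds Wnt proteins directly, fell by 1.54 on the log2 scale (SE 0.301, adjusted p = 0.00279), from 1.60 to 3.78 CPM (median 2.79) to 0.396 to 2.06 CPM (median 0.867). Only LA replicate 1 with FGF1 and LA replicate 2 of day 26 crossed the gap between the days. Dkk1, which blocks the LRP co-receptors, went from 0.210 to 0.376 CPM to 0.465 to 0.660 CPM without overlap (log2 difference 1.02, SE 0.306, adjusted p = 0.0274), and Sfrp5 from 0.0536 to 0.262 CPM to 0.149 to 0.813 CPM with overlap (1.69, SE 0.483, adjusted p = 0.0216). Both are levels of a few counts per library. Sfrp1, the most abundant modulator, did not pass at -0.48 (adjusted p = 0.0569), and the R-spondins Rspo2 (-0.08), Rspo1 (-0.41) and Rspo4 (0.04) did not pass.

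In the nuclear and feedback group, Tcf7 fell by 0.75 on the log2 scale (SE 0.187, adjusted p = 0.0113), from 4.49 to 7.02 CPM (median 5.03) to 2.15 to 4.23 CPM (median 3.34), without overlap. Axin2, the usual readout of canonical signalling, stood at 10.6 to 19.3 CPM (median 13.7) and 12.1 to 25.3 CPM (median 17.1), and its log2 difference of 0.31 (95% interval -0.01 to 0.63, adjusted p = 0.135) did not pass. Lef1 stood at -0.11 (95% interval -0.61 to 0.39). Over all members, 4 of 39 (10.3%) were higher and 3 of 39 (7.69%) lower with no overlap between the days, against 7.82% and 8.52% of all genes.

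**Figure D3:**
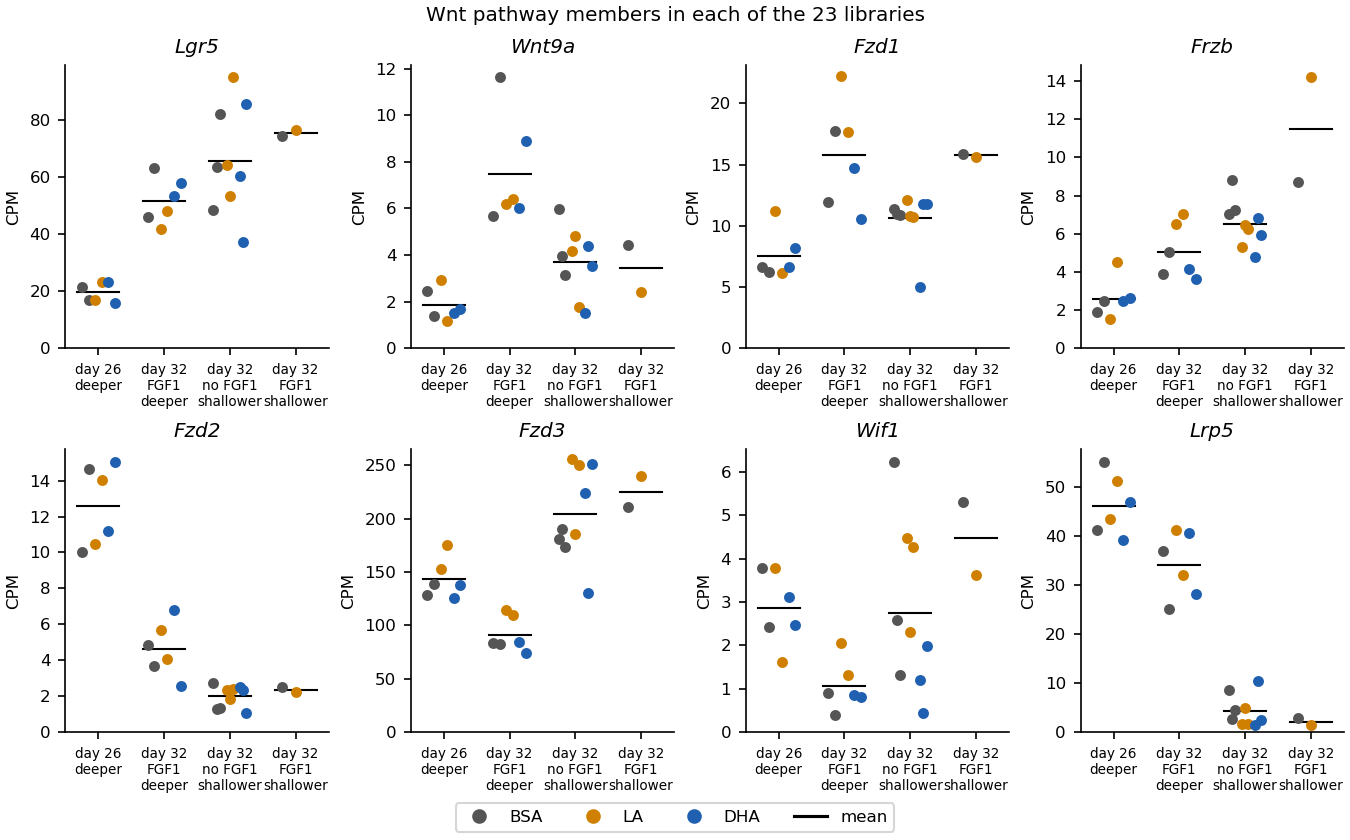
CPM of 8 members in each of the 23 libraries, by day, FGF1 and depth set; points are libraries coloured by medium and black lines are means. Lgr5 and Wnt9a are higher and Fzd2 and Fzd3 lower at day 32 with FGF1 than at day 26 in the deeper set, and Lrp5 is far lower in both shallower blocks than in both deeper ones.

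Of 51 further pathway genes, 49 were tested in the same comparison and 18 changed (36.7%), 6 higher and 12 lower, against 28.7% of all genes (14.6% higher and 14.1% lower). Nkd2 and Nkd1, which encode cytoplasmic feedback antagonists, fell by 1.42 and 0.59 on the log2 scale, and so did Ror1, a Wnt co-receptor kinase, by 0.82. Nkd2 went from 7.58 to 11.1 CPM down to 1.97 to 6.92 CPM, and Ror1 from 6.06 to 7.45 CPM down to 3.08 to 4.59 CPM, both without overlap. Ndp, which encodes Norrin, a ligand of Fzd4 that acts on retinal vessels, rose by 1.15 from 2.20 to 4.75 CPM to 6.15 to 9.77 CPM. Apcdd1, a membrane inhibitor of Wnt signalling, rose from 5.09 to 10.3 CPM to 11.2 to 25.7 CPM, and Gpc3, a cell surface proteoglycan, rose by 0.83. Their adjusted p values lay between 0.000319 (Apcdd1) and 0.0200 (Nkd1).

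Other cell types moved between these days as well. Of the pigment epithelium markers, 3 of 6 tested fell and none rose, and their sum ranged from 24.2 to 189 CPM at day 26 and from 16.9 to 118 CPM at day 32 with FGF1, with the defining marker Rpe65 at 0 in 11 of these 12 libraries. Of the 10 mesenchyme markers 1 rose, with sums of 28.8 to 120 and 38.0 to 475 CPM and none at 0. Of the 8 ciliary margin markers 1 rose, with sums of 56.1 to 157 and 132 to 363 CPM. Only 4 of the 8 had a log2 difference above 0 and the median was -0.17, so their sum does not stand for the list as a whole. Of the 8 photoreceptor markers 3 rose and 2 fell, with sums of 2965 to 4226 and 4620 to 8461 CPM. Of the 8 markers of progenitors and Muller glia 4 rose and 3 fell, with sums of 1159 to 1523 and 1478 to 1870 CPM. The photoreceptor markers and the progenitor and glia markers were also split, so their sums need not stand for each marker either. Correlations of log2 levels with these sums are given across the 12 deeper libraries, which share clone and set and hold both days. They describe the sums and not the lists as a whole. Lgr5 had r = 0.87 with the photoreceptor, 0.63 with the progenitor and glia, 0.54 with the ciliary margin, 0.21 with the mesenchyme and -0.55 with the pigment epithelium sum. For Wnt9a the values in the same order were 0.86, 0.78, 0.69, 0.27 and -0.39. Fzd1 had 0.88 with the progenitor and glia and 0.79 with the ciliary margin sum, and Fzd2 had -0.86 with the photoreceptor and -0.66 with the ciliary margin sum. Wif1 had 0.73 with the pigment epithelium and -0.84 with the photoreceptor sum. The part of these cells in the member differences was not tested.

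Of the 16 changed members, 10 passed in each of 16 alternative fits, and 6 did not. The 10 were Wnt9a, Lgr6, Lgr5, Fzd1, Frzb, Wif1, Fzd2, Wnt3, Tcf7 and Fzd3. Dkk1 missed the threshold in 12 of the 16, Fzd9 and Lrp5 in 9 each, Fzd7 in 8, and Fzd6 and Sfrp5 in 7 each, mostly when 1 library was left out, with adjusted p values up to 0.139, 0.150, 0.137, 0.0844, 0.0741 and 0.134.

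FGF1 could be compared with its absence only within the shallower set, 2 libraries against 9, and no member passed. Both libraries with FGF1, from BSA and LA, were left out by the authors, while 6 of the 9 without it were kept. FGF1 and left-out status therefore cannot be fully told apart here. In edgeR 0 of 33 tested members and 0 of 18029 genes (0%) were called, with 937 genes (5.20%) and 1 member under an unadjusted p of 0.05. DESeq2 called 11 genes and 0 members. That member was Frzb, at 4.77 to 8.81 CPM (median 6.48) without FGF1 and at 8.73 and 14.2 CPM with FGF1, a log2 difference of 0.74 (95% interval 0.04 to 1.45, adjusted p = 0.837). The next were Fzd8 at 0.63 (SE 0.310) and Axin2 at -0.73 (95% interval -1.57 to 0.11). Axin2 stood at 4.06 to 9.57 CPM without and at 4.02 and 3.96 CPM with FGF1, below all 9. Fzd1, at 15.9 and 15.6 CPM with FGF1 against 4.99 to 12.1 without, Fzd8, at 7.63 and 11.6 against 5.00 to 7.18, and Fzd10, at 2.41 and 2.20 against 0.297 to 1.71, lay above all 9. Thus 3 of 33 tested members (9.09%) lay above and 1 (3.03%) below without overlap, against 4.51% and 3.16% of all genes. Intervals reached a median of 0.852 log2 units to each side over all genes, and on counts simulated for this comparison 1% of 2-fold and 50% of 4-fold changes were found. The summed mesenchyme markers stood at 403 and 519 CPM in the 2 libraries with FGF1 and at 51.7 to 297 CPM in the 9 without, and their part in these values was not tested. In the deeper set Lgr5 was higher at day 32 with FGF1 than at day 26. Within the shallower set it stood at 74.3 and 76.4 CPM with FGF1 and at 37.1 to 95.2 CPM (median 63.4) without.

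Day 32 without FGF1 against day 26 is also shallower against deeper libraries, so day and depth set cannot be told apart in it. In that comparison 24 of 40 tested members passed (60.0%), 13 higher and 11 lower, against 12861 of 21124 genes (60.9%; 29.5% higher and 31.4% lower), so the members were called about as often as genes in general. The largest were Rspo3 at 3.50, Lrp5 at -3.49, Fzd2 at -2.67, Wnt11 at -2.46, Wnt3 at -2.33, Fzd9 at -2.17 and Dkk2 at 2.00. Among the others Lgr5 stood at 1.75, Lgr6 at 1.72, Frzb at 1.33, Dkk1 at 1.27, Wnt5a at 1.01, Wnt9a at 1.00, Lrp6 at 0.99, Fzd6 at 0.81, Fzd4 at 0.76, Lgr4 at 0.72 and Fzd1 at 0.51. On the lower side Wnt7b stood at -1.96, Wnt7a at -1.79, Wnt5b at -1.72, Fzd10 at -1.58, Tcf7 at -1.55 and Axin2 at -1.11. Of the 24, 20 passed in every alternative fit that tested them. Fzd1 missed the threshold in 15 of 29 alternative fits (adjusted p up to 0.178), Wnt7a in 9, Wnt9a in 3 and Dkk2 in 1, which was the fit without DHA replicate 1 of day 32 (adjusted p = 0.0506). Set beside the deeper comparison, which shares the day 26 libraries, Lgr5, Lgr6, Frzb, Wnt9a, Dkk1, Fzd1 and Fzd6 were higher and Fzd2, Wnt3, Lrp5 and Tcf7 lower in both, while Fzd9 was higher at 1.12 in the deeper comparison and lower at -2.17 here. Of the other 4 members called in the deeper comparison, Fzd3 stood at 0.52 (adjusted p = 0.0623), Wif1 at -0.21 (adjusted p = 0.721) and Fzd7 at -0.03 (adjusted p = 0.928) here, and Sfrp5 was not tested. Marker sums differed here too. Of the 10 mesenchyme markers 4 were higher, with sums of 28.8 to 120 CPM at day 26 and 51.7 to 297 CPM at day 32 without FGF1 and a median log2 difference of 1.25. Of the photoreceptor markers 4 were higher and 2 lower, and of the 6 tested pigment epithelium markers 2 were lower. Their part in the member values was not tested.

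Some libraries with the same labels fell into both sets: BSA and LA with FGF1 at day 32 had 4 deeper and 2 shallower libraries. The 4 deeper ones were kept by the authors, with 3.02% to 3.87% mitochondrial counts. Both shallower ones were left out, with 11.9% and 11.7%. Depth, left-out status and mitochondrial share cannot be told apart here. Besides these, the libraries differed in marker sums. The mesenchyme sum stood at 51.1 to 475 CPM in the 4 deeper and at 403 and 519 CPM in the 2 shallower ones, and the photoreceptor sum at 4620 to 6898 against 3274 and 2848 CPM, and their part in the member values was not tested. Lrp5 stood at 25.2 to 41.3 CPM in the 4 deeper and at 2.91 and 1.32 CPM in the 2 shallower ones, a 16.0-fold ratio of means under identical labels. Fzd3 stood at 82.0 to 114 against 211 and 240 CPM, Lrp6 at 70.4 to 84.9 against 213 and 225 CPM, Axin2 at 15.7 to 25.3 against 4.02 and 3.96 CPM, and Rspo3, which had r = 0.79 with the mesenchyme sum across the 12 deeper libraries, at 0.176 to 0.929 against 8.83 and 1.98 CPM. Of 37 members with a summed mean above 1 CPM, 25 did not overlap between these sets, 15 higher and 10 lower in the shallower one. Of all 18696 genes above that level 72.7% did not overlap, 35.4% higher and 37.3% lower in the shallower one, so the members were not apart more often than genes in general. The log2 ratio between the sets followed the GC content of the main transcript across these 37 members with r = -0.76. Genes are not independent replicates, and 1 pair of sets underlies all 37 points. Fzd5 (56.0 to 64.7 against 66.1 and 51.6 CPM), Fzd1 (11.9 to 22.2 against 15.9 and 15.6 CPM) and Wnt2b (5.88 to 6.45 against 5.52 and 4.95 CPM) lay close in both sets.

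The same relation ran through the comparison of day 32 without FGF1 with day 26, with r = -0.72 over the 40 tested members and -0.63 over 20840 genes. In the deeper comparison of days it was 0.14 over 39 members and -0.03 over 19841 genes. Lrp5, with 58.6% GC, and Fzd9, with 62.2%, were at the low end of the first comparison, and Lrp6 and Lgr5, with 46.0% and 47.1%, were above 0. The part of GC content in the pooled values was not tested.

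**Figure D4:**
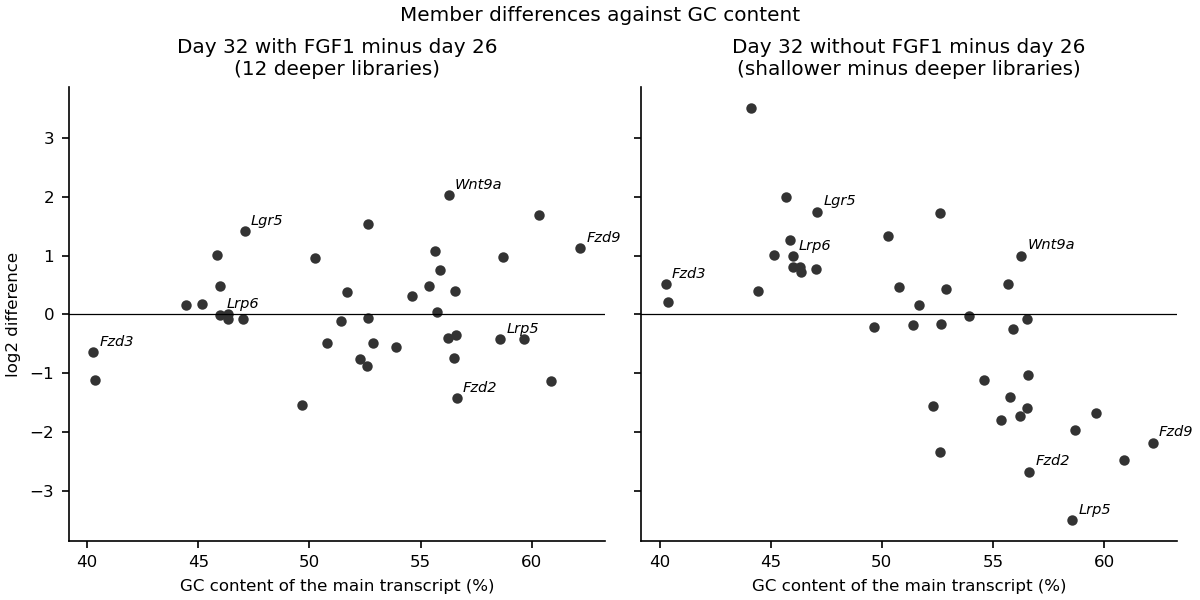
Log2 difference of each tested member against the GC content of its main transcript, in the deeper comparison of day 32 with FGF1 against day 26 (left, 39 members, r = 0.14) and in the comparison of day 32 without FGF1 against day 26, which is also shallower against deeper (right, 40 members, r = -0.72). Points slope downward in the right panel only.

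Shares of the transcripts of one gene also differed between blocks of libraries. These blocks differ in depth set, day or FGF1, and Tcf7 shares differed inside the deeper set too. Of the Lrp5 counts pooled over libraries, the protein-coding Lrp5-201 held 83.7% at day 26 and 83.2% at day 32 with FGF1 in the deeper set, but 39.4% without FGF1 and 15.6% with FGF1 in the shallower set. There the longer Lrp5-204, annotated as a target of nonsense-mediated decay, held 58.5% and 84.4%, against 13.7% and 15.0% in the deeper blocks. For Wif1, Wif1-201 held 97.5% and 94.4% of transcript counts in the deeper blocks (352 and 133 transcript counts in all). In the shallower libraries without FGF1 it held 7.07% of 226 transcript counts. Wif1-203 held 59.1% there and the retained-intron transcript Wif1-202 held 33.8%. Tcf7-201 held 76.8% of Tcf7 counts at day 26, 90.5% at day 32 with FGF1 in the deeper set and 98.8% at day 32 without FGF1. Its range over the 6 libraries of day 26 was 54.7% to 92.4%, and over the 6 deeper ones with FGF1 72.6% to 100%. Such shares are kallisto estimates from low counts for Wif1 and Tcf7.

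Fatty acids were compared within each combination of day, FGF1, depth set and whether the authors kept the library. No member passed in any of the 3 contrasts. For DHA against LA, 34 of 40 tested members were lower and 6 higher, with a median of -0.29 against 0.02 over all 21124 genes, and edgeR called 0 members and 0 genes (0%), with 956 genes (4.53%) and 8 members under an unadjusted p of 0.05. DESeq2 called 3 genes and no member. The smallest p belonged to Sfrp1 at -0.60 (SE 0.205, adjusted p = 0.960), Fzd3 at -0.30 (SE 0.114) and Wnt8b, a ligand of the developing forebrain. Against BSA, DHA gave a median of -0.14 over the members (0 called, 414 genes or 1.96% under an unadjusted p of 0.05), led by Dkk2 at -0.94, Sfrp1 at -0.40 and Wnt7a at 1.15. LA gave 0.16 (0 called, 639 genes or 3.02%), led by Wnt7a at 2.07, Fzd3 at 0.33 and Lgr6 at 1.42. DESeq2 called 3 and 4 genes in these 2 contrasts and no member. All 3 share libraries and are not independent of each other.

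DHA and LA were also compared with FGF1 in the deeper set alone, with 2 libraries of each medium. Of 39 tested members 31 were lower and 8 higher with DHA, with a median of -0.54 against -0.01 for all genes, and edgeR called none of them against 2 of 20111 genes (0.00994%), with 1530 genes (7.61%) and 10 members under an unadjusted p of 0.05. DESeq2 called 149 genes and 3 members, Lgr6, Wnt8b and Fzd3. Both DHA libraries lay below both LA libraries for 17 of 39 members (43.6%, against 17.0% of all genes) and above for 4 (10.3%, against 22.0%).

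In these deeper libraries Wnt8b stood at 3.67 and 2.41 CPM in LA with FGF1, at 0.210 and 0.352 CPM in BSA and at 0 and 0.0581 CPM in DHA. Within this block LA was thus high and both other media were low. The counts were 117 in LA and 1 in DHA. The ratio of LA to DHA was 114-fold with a 95% counting interval of 20.0 to 4532, which covers counting error only, and the adjusted p was 0.187. In the other states its DHA libraries were at 1.13 and 0.590 CPM at day 26, and at 0, 0.171 and 0.104 CPM at day 32 without FGF1. There LA stood at 1.92, 2.68 and 0.548 CPM, and BSA at 2.48, 0.297 and 0.611 CPM overlapped it. At day 26 LA stood at 1.35 and 0.0501 CPM, so the media overlapped there. Lgr6 stood at 5.88 and 3.36 CPM in LA with FGF1, 0.786 and 0.484 in BSA and 0.595 and 0.929 in DHA, a log2 difference of -2.64 for DHA against LA (SE 0.452, adjusted p = 0.159). Without FGF1 at day 32 only 1 of 3 LA libraries was high, at 6.01 CPM, beside 0.958 and 0.877 CPM.

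Wnt5a stood at 11.9 and 7.29 CPM in LA with FGF1, 5.40 and 4.53 in BSA and 5.61 and 4.12 in DHA (log2 difference for DHA against LA -1.02, SE 0.302, adjusted p = 0.401). Sfrp1 stood at 16.0 and 17.8 CPM in LA, 12.4 and 9.15 in BSA and 9.08 and 6.79 in DHA (-1.13, SE 0.306, adjusted p = 0.346). Fzd3 stood at 114 and 109 CPM in LA, 83.2 and 82.0 in BSA and 84.4 and 73.9 in DHA (-0.54, SE 0.140, adjusted p = 0.322). For Lgr6, Wnt5a and Fzd3 the BSA libraries lay nearer to DHA than to LA. Fzd5 went the other way, with 84.9 and 72.4 CPM in DHA against 56.7 and 56.0 in LA (0.44, SE 0.192, adjusted p = 0.623). Whether the DHA and LA gap differed between day 32 with FGF1 and day 26 was tested as an interaction, and 0 of 39 members and 0 of 20111 genes (0%) passed in edgeR, with 8 members and 1272 genes (6.32%) under an unadjusted p of 0.05 and 67 called by DESeq2. The smallest p there belonged to Wnt8b (adjusted p = 0.493), Lgr6 (-2.57, adjusted p = 0.523) and Wnt11 (-3.59, adjusted p = 0.632).

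**Figure D5:**
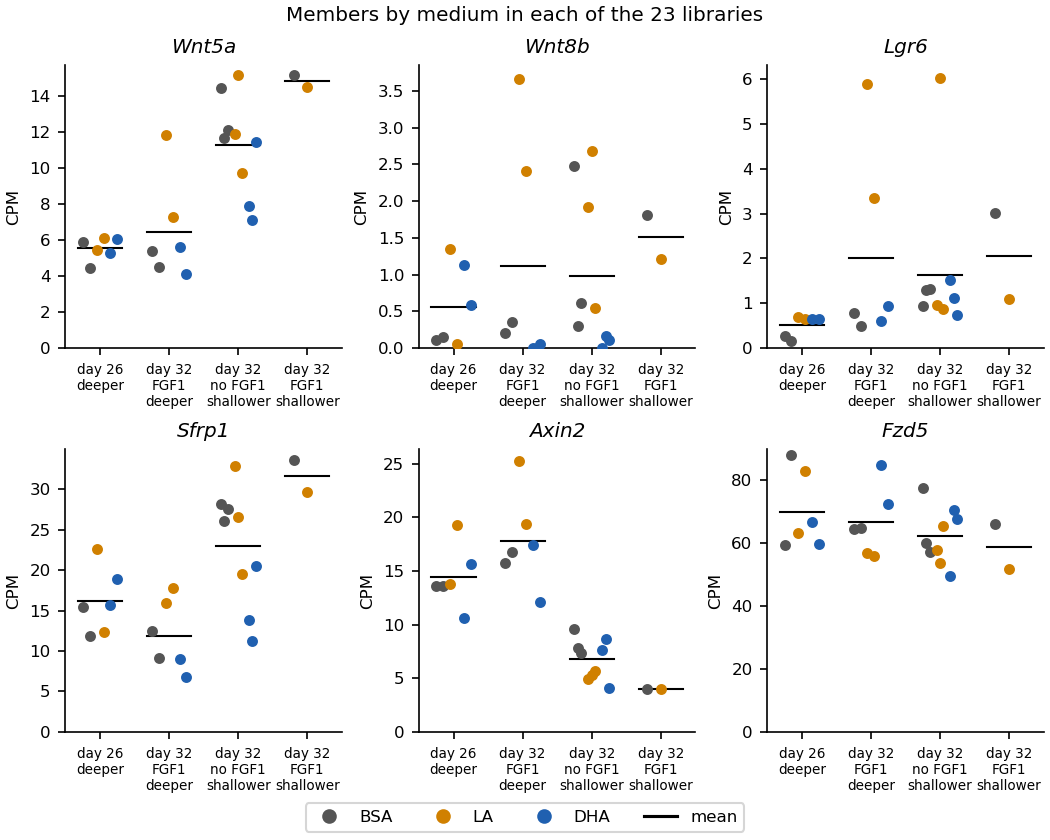
CPM of 6 members in each of the 23 libraries, by day, FGF1 and depth set; points are libraries coloured by medium and black lines are block means. In the deeper block with FGF1 both LA libraries lie above both DHA libraries for Wnt5a, Wnt8b, Lgr6, Sfrp1 and Axin2 and below them for Fzd5.

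Markers of several other cell types differed between the same libraries. With FGF1 in the deeper set, the summed mesenchyme markers stood at 475 and 138 CPM in LA, 38.0 to 74.6 CPM in DHA and 51.1 to 69.7 CPM in BSA, with none of the 10 at 0, and a median log2 difference of -2.66 for DHA against LA. The pigment epithelium sum stood at 69.6 to 118 CPM in LA and 16.9 to 24.7 CPM in DHA, with a median over 6 tested markers of -3.50 and Rpe65 at 0 in these 4 libraries. The ciliary margin sum stood at 202 to 363 CPM in LA and 132 to 133 CPM in DHA. The forebrain sum stood at 10.5 and 13.5 CPM in LA and at 6.10 and 3.02 CPM in DHA, with a median over 3 tested markers of -1.47. The photoreceptor sum was higher in DHA, at 6135 and 8461 CPM against 4671 and 4620 CPM in LA, with a median of 0.61 and 5 of 8 markers under an unadjusted p of 0.05, none of them called. Across the 12 deeper libraries, log2 levels of Wnt5a followed the mesenchyme sum with r = 0.90, Lgr6 with 0.84, Wnt8b with 0.77, Axin2 with 0.68 and Fzd1 with 0.64. With the ciliary margin sum Fzd1 had 0.79, Lgr6 0.66, Wnt8b 0.64, Wnt5a 0.40 and Axin2 0.29, and Fzd5 had -0.76. With the pigment epithelium sum Wnt8b had 0.68, Wnt5a 0.56, Lgr6 0.32, Axin2 0.10 and Fzd1 -0.03. Axin2 had r = 0.75 with the forebrain sum. Wnt8b held only a few counts in several of these libraries. Sfrp1 followed the pigment epithelium sum with r = 0.93. In the 11 shallower libraries the values were 0.64, 0.57, 0.60, -0.25 and 0.31 for the 5 against the mesenchyme sum and 0.78 for Sfrp1 against the pigment epithelium sum. LA replicate 1 with FGF1 was the highest of the 12 deeper libraries in mesenchyme sum, Wnt5a, Wnt8b, Lgr6, Fzd1 and Axin2. No r was computed without this library. Without it the log2 difference of DHA against LA with FGF1 was -2.17 for Lgr6 (adjusted p = 0.299) and -0.49 for Fzd3 (adjusted p = 0.739). The part of these cells in the differences between media was not tested.

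Of the 5 libraries that the authors left out, the 3 without FGF1 were compared with the 6 kept shallower libraries without FGF1. No member passed (0 of 33 by edgeR, 0 by DESeq2), against 46 of 17798 genes (0.258%). Under an unadjusted p of 0.05 there were 1 member and 713 genes (4.01%). The smallest p values belonged to Rspo3 at 1.56 (95% interval 0.18 to 2.94, adjusted p = 1.00), Sfrp4 at 0.93 and Wnt2b at 0.75. Rspo3 stood at 4.53, 2.98 and 0.434 CPM in the left-out and at 0.257 to 1.48 CPM in the kept libraries.

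Some members share sequence or position with other genes. Fzd6 has a copy on a patch of the assembly with the same total of 2542 counts, so its reads were shared between the copies and its level is uncertain. Wnt5b (1239 counts) lies over Fbxl14 (7456 counts) on the opposite strand, and Lgr5 (15624 counts) over A930009A15Rik (483 counts). The kit marked strand, but whether the counting used it is not given in the sources used here.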

How the data were processed

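Reads were trimmed with Trimmomatic 0.36 and quantified with kallisto 0.45.0 on GRCm38.p6, per the submitters' processing notes, which also name edgeR and give no order of steps. For 23 libraries the authors deposited gene and transcript tables of expected counts, which are not whole numbers. For 18 of them the authors also deposited a normalized CPM signal per gene, which served here only for gene positions and to see which libraries were kept. Gene counts, after rounding, were filtered (filterByExpr), scaled by TMM and tested with the quasi-likelihood test of edgeR 4.0.16, with p adjusted by Benjamini-Hochberg over all genes tested. Standard errors and 95% intervals were derived from the log2 difference and the F statistic and are approximate. GC content and lengths came from GENCODE M21, promoters from RefSeq (GRCm38.p6). The transcript table's column totals differ from the gene table's by at most a relative 1.33e-11. For a single gene, counts need not equal the sum of its transcript counts. Over 1439 genes of 1 transcript, the median ratio of gene to transcript count was 0.966 to 1.01 by library. Software was R 4.3.3 with DESeq2 1.42.0, and matplotlib 3.10.9 under Python 3.11.15. On simulated counts, 73% of 2-fold and 96% of 4-fold changes were found for day 32 with FGF1 against day 26, 1% and 50% for FGF1 in the shallower libraries, 57% and 81% for DHA against LA, and 21% and 60% for DHA against LA with FGF1.

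The members, gene lists and comparisons were chosen with earlier results of these data known. Named were members past an adjusted p of 0.05 (up to 12 per direction, and Fzd1 beyond these for day 32 without FGF1), the 2 best expressed per role, the 3 smallest p where none passed, members under the filter, and up to 6 further pathway genes by size; others named in the media comparisons were picked after their values were seen. Alternatives were RLE size factors, no filter, DESeq2, a replicate block, the kept or left-out libraries alone, the compared groups alone, and leaving out each library.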

Additional observations from a re-analysis of the deposited data

How the results depend on the processing

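Counts of members past an adjusted p of 0.05 are given per comparison. For DHA against LA the count went from 0 to 1 with no filter on low counts, for LA against BSA from 0 to 3, for DHA against LA with FGF1 from 0 to 5 with no filter and to 3 with DESeq2, and for its difference from day 26 from 0 to 2 with no filter; the cause was not tested. Leaving out 1 library at a time moved the number of members called for day 32 with FGF1 and for day 32 without FGF1, each against day 26. Calls over all genes moved in the same fits, so these moves are not particular to the members. For DHA against LA with FGF1, Wnt8b gained the call without LA replicate 1 or 2 of day 26. In the other 6 comparisons no member gained a call in these fits. A left-out library can leave a group with 1 sample, which is then assumed to vary like the others. Of the single members named, 0 reversed direction under any alternative, and 1294 alternative values kept their side of the threshold, 80 lost and 12 gained the call.

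The replicate numbers did not pair libraries throughout. Deviations from group means of same-numbered LA and DHA libraries correlated at -0.12 at day 26 and at 0.23, 0.55 and 0.35 at day 32 without FGF1. For BSA and LA they correlated at 0.22 at day 26 and at 0.09, -0.20 and 0.19 at day 32 without FGF1. For BSA and DHA the values were -0.01 at day 26 and -0.07, -0.30 and 0.19 at day 32 without FGF1. With the replicate block, 15 of 39 members passed for day 32 with FGF1 against day 26 (Lrp5 lost its call), against 6017 of 20111 genes. For day 32 without FGF1, 23 of 40 members passed (Fzd1 and Wnt7a lost and Rspo1 gained the call), against 11423 of 21124 genes. In the other comparisons fitted with the block 0 members passed. For the left-out libraries no block was possible, since they are the first replicates.

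Counts over all genes moved more. FGF1 in the shallower libraries gave 0, but 10 with no filter, 11 with DESeq2, 57 with the replicate block and 6 in the left-out libraries alone. No filter and DESeq2 gave 228 and 3 for DHA against LA, 81 and 3 for DHA against BSA and 169 and 4 for LA against BSA; the other fits gave 0, or 1 for LA against BSA without BSA replicate 1 of day 26. DHA against LA with FGF1 went from 2 to 528, 149, 20 (replicate block) and 1 (these groups only), or 0 to 26 without single libraries, its difference from day 26 from 0 to 332 and 67, or 0 to 1 without single libraries, and the left-out comparison from 46 to 145 and 107, or 17 to 58 without single libraries.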
